A study of Zea mays with 24 samples.

Results

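The genes described here are 36 maize gene models whose mean level was higher in ZmICE1a mutant endosperm than in wild type in a pair of separate experiments. In the experiment with jasmonic acid, mutant and wild type follow the names given to the deposited counts, and the titles disagree, as set out below. The 36 were picked from 41903 nuclear gene models, and 46430 features were counted in all. The endosperm is the nutritive tissue of the maize kernel. Levels are given as CPM, the count of a gene per 1000000 counts of its library, and were averaged over the 3 libraries of a group. A member had a mean of at least 10 CPM in both mutant groups and a log2 ratio of (mutant + 1) to (wild type + 1) of at least 0.6 in both experiments. Identifiers from Zm00001d040000 to Zm00001d042999 were left out. Because the levels in these 4 groups chose the members, their differences there are given as a description, with no test.

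All 24 libraries came from endosperm at 15 days after pollination, each from 5 to 10 pooled endosperms, and were made by MP3RNA-seq, which reads the 3' ends of transcripts. The genotype experiment compared wild type with the mutant. The IAA experiment compared wild type without and with the auxin IAA. The JA experiment crossed genotype with JA (jasmonic acid), and each of the 8 groups over all experiments held 3 libraries. The sources used here do not give the mutant allele, the background of the lines, or the dose and duration of either hormone. Separate plants are not stated for the 3 libraries of a group. The p-values therefore reflect only how much these libraries vary, and that variation may be technical. In bulk endosperm, fewer cells of a type and less RNA per cell cannot be told apart.

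The labels of the JA experiment disagree for 6 of its 12 libraries, and the rule for the members follows the names given to the deposited counts. The group called file-named untreated mutant below has a mutant genotype field and a mutant stage field, but a treatment field reading JA-treated and a title reading wild type with JA. The group called file-named JA-treated wild type below has wild type genotype and stage fields, but a treatment field reading untreated and a title reading mutant without JA. All labels agreed for untreated wild type and for JA-treated mutant. On the titles, the second ratio of the rule would be a response of wild type to JA, and the comparison of the other 2 groups would be a response of the mutant to JA.

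ICE1 proteins are transcription factors of the bHLH family, known from Arabidopsis as activators of cold-response genes and of stomatal development, and JAZ repressors of the jasmonate pathway bind Arabidopsis ICE1. Jasmonates are hormones of wounding and defence, and are perceived by a co-receptor of COI1 and JAZ proteins, after which the JAZ repressors are degraded. Auxin takes part in early endosperm growth and in the differentiation of its outer cell layers. The files and the reference table pair no name with any nuclear gene model, so members are given by identifier, with no function, and a few are named per comparison. The level of the ZmICE1a transcript is not reported here for the same reason, so the genotype labels were not checked on the targeted gene.

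As a check of the genotype labels, the excluded run of identifiers was examined, since it held many differences between mutant and wild type. In it, 33 genes had a log2 ratio beyond 1 in either direction in the genotype experiment with libraries that did not overlap, and 23 of them reached 10 CPM in a group of the JA experiment. In file-named untreated mutant against untreated wild type, 5 of the 33 had a log2 ratio beyond 1 in the same direction and 1 in the opposite one. The counts were the same in JA-treated mutant against file-named JA-treated wild type, with 5 in the same direction and 1 in the opposite one. Between file-named JA-treated wild type and untreated wild type 0 of the 33 differed by that much in either direction. Between JA-treated mutant and file-named untreated mutant 0 did so in the same direction and 3 in the opposite one. Most of the 33 thus carried little difference in any contrast of the JA experiment, and these values do not settle the labels of the 6 libraries.

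Depth set the precision. The genotype experiment had library totals of 3109928 to 4875478 counts, the JA experiment of 839322 to 1917363 and the IAA experiment of 432016 to 959735, so that members near 10 CPM held few counts in the last 2. All mutant libraries of the genotype experiment were shallower than all wild type ones, and a part of depth in the ratios was not tested.

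The 36 members fell into 2 kinds that differed in how their counts were spread over the libraries. Of the 36, 19 carry neighbouring identifiers in a single run from Zm00001d048819 to Zm00001d048843, and the other 17 are scattered over the identifier series. Among the 17, Zm00001d039935 lies just below the excluded identifiers, which begin at Zm00001d040000. In the run, high values came from 1 of the 3 libraries in each mutant group that the rule used. Among the 17 others, 13 had every mutant library above every wild type library in both experiments, against 0 of the 19. Over the 7515 gene models with at least 10 CPM in both mutant groups, 3.63% had such a separation in both, and 0.479% passed the rule.

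**Figure D1:**
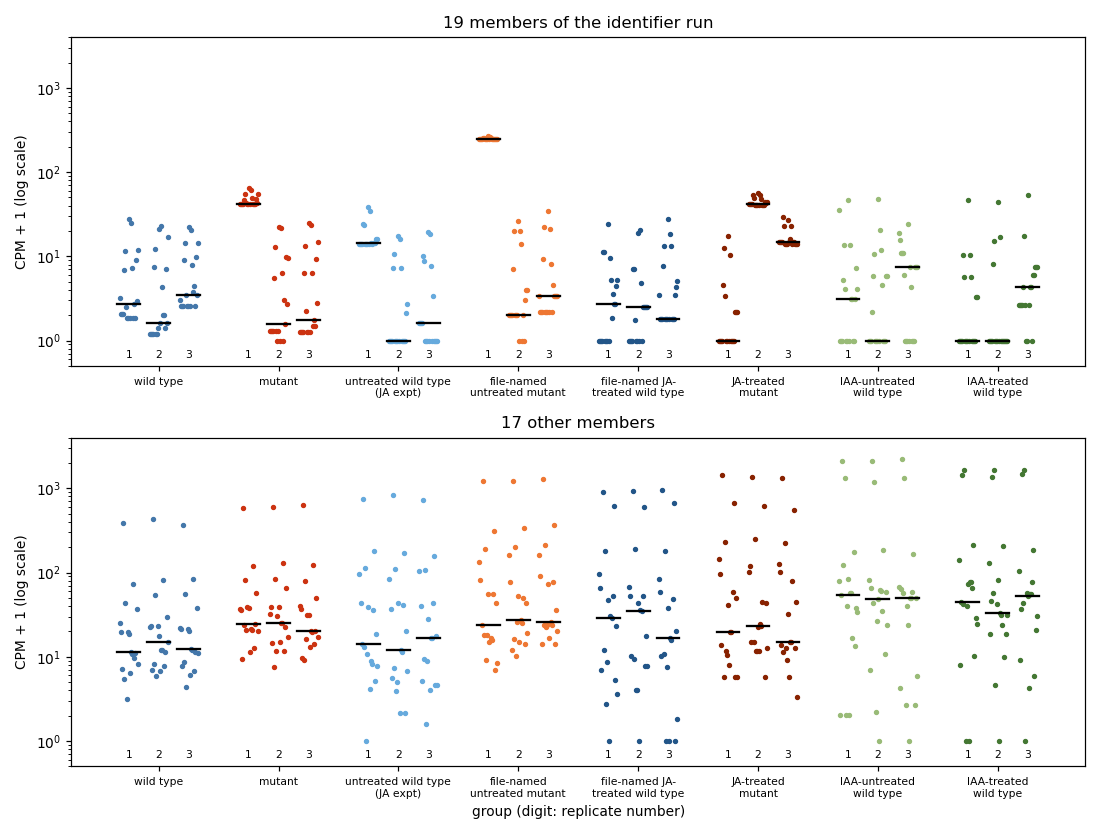
Level of each member in each of the 24 libraries as CPM + 1 on a log axis, with the 19 members of the identifier run above and the 17 others below. Each point is a gene, each black line the median of a library, and the digits are replicate numbers. In the run, replicate 1 of mutant and of file-named untreated mutant stand above their group mates, while the 17 others have similar medians in the 3 libraries of either mutant group.

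In the run the members shared almost the same count in the libraries where they were high. In mutant replicate 1 the 19 counts ran from 127 to 200, and 12 of them lay within 3 counts of the lowest. In mutant replicates 2 and 3 the median count of the same 19 genes was 2 and 3. In wild type the 3 medians were 8, 3 and 11. Among the 6 libraries of the genotype experiment, mutant replicate 1 alone had a median above 11 counts.

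The JA experiment showed the same layout with a larger count. In file-named untreated mutant replicate 1 the 19 counts ran from 336 to 366, and 15 lay within 3 counts of the lowest. The medians in replicates 2 and 3 of that group were 1 and 2. In untreated wild type the medians were 26, 0 and 1, so replicate 1 of that group also held a shared level, with a lowest count of 25. In each experiment a single library thus held most of the counts behind the mutant mean.

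The members with the largest smaller ratio of the 2 by the rule for naming were Zm00001d048828 and Zm00001d048840, both in the run. Zm00001d048828 held 4, 1 and 7 counts in wild type and 128, 0 and 1 in the mutant. In untreated wild type it held 25, 0 and 0 counts, and in file-named untreated mutant 336, 1 and 1. In CPM this is 0.892 ± 0.694 against 13.8 ± 23.7 in the genotype experiment, and 4.35 ± 7.53 against 83.5 ± 143 in the JA experiment (SD, n = 3 each). The groups overlapped in both, and the SD exceeded the mean in both mutant groups.

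Zm00001d048840 held 4, 2 and 7 counts in wild type and 127, 2 and 2 in the mutant. It held 26, 0 and 0 counts in untreated wild type and 337, 0 and 2 in file-named untreated mutant. These counts differ from those of Zm00001d048828 by at most 2 in every library named here.

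The amount by which replicate 1 exceeded its group mates was nearly constant along the run, whatever the level of the gene. The files list 22 identifiers between its ends, of which 3 were not members. In the mutant, replicate 1 minus the mean of replicates 2 and 3 was 32.8 to 46.8 CPM over the 22 (median 40.6). In file-named untreated mutant it was 232 to 249 CPM (median 247). The 3 identifiers that were not members spanned the same ranges. They held 341 to 1416 counts in the wild type libraries of the genotype experiment, where no member of the run exceeded 121.

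Zm00001d048824, for instance, which is not a member and was singled out after its values were seen, stood at 357 CPM in mutant replicate 1 and at a mean of 310 in replicates 2 and 3, a difference of 46.8. In file-named untreated mutant it stood at 621 against 384 CPM, a difference of 237. The listed identifiers on either side of the run were looked at for comparison. Zm00001d048818 was at 977 CPM in mutant replicate 1 and at a mean of 939 in replicates 2 and 3, a difference of 37.4 that lies within the range of the run. In file-named untreated mutant it was at 992 against 983 CPM, a difference of 8.78, well under that range. Zm00001d048847 was at 3945 against 4033 CPM in the mutant and at 2491 against 3869 CPM in file-named untreated mutant, lower in replicate 1 of both groups.

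**Figure D2:**
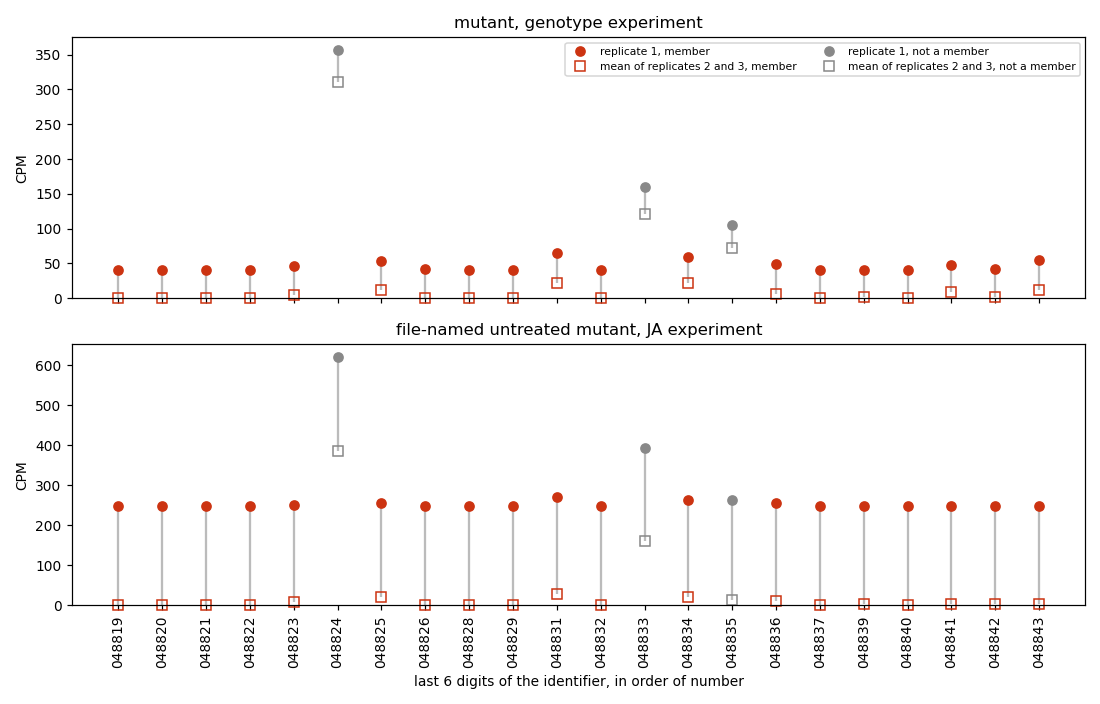
CPM of the 22 listed identifiers of the run in mutant (upper) and in file-named untreated mutant (lower). Filled circles are replicate 1, open squares the mean of replicates 2 and 3, red the 19 members and grey the 3 identifiers that are not members. The vertical lines, the difference between them, have nearly the same length along the run, 32.8 to 46.8 CPM above and 232 to 249 CPM below.

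The sources used here do not say how reads that align to several features, or across them, were counted. Whether the 19 members received the same reads was not tested, and their counts cannot be taken as 19 separate measurements. A similar coincidence held for a pair among the 17 others, Zm00001d037968 and Zm00001d037969, which differed by at most 3 counts in each of the 24 libraries and held 868 and 844 counts in all. Both are included in the counts over the 17, though they cannot be taken as separate measurements. Over the whole table, 135 of 8327 pairs of neighbouring identifiers (1.62%) with at least 100 counts each coincided within 3 counts or 2% in at least 20 of the 24 libraries.

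Membership was recomputed with each of the 12 libraries of the rule left out. Without mutant replicate 1, 0 of the 19 run members passed, 14 of the 17 others did, and 15 genes passed in all. Without file-named untreated mutant replicate 1, 0 of the 19 and all 17 others passed, among 23 genes. Leaving out any other library kept 18 or 19 of the run and 11 to 17 of the others. With both replicates left out, the log2 ratios of the run members had medians of −0.40 in the genotype and −1.04 in the JA experiment, where those of the 17 others were 0.72 and 1.06. Untreated wild type replicate 1 of the JA experiment was kept, and it too held a shared level, with a lowest count of 25. Nothing about genotype is read from the −1.04.

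**Figure D3:**
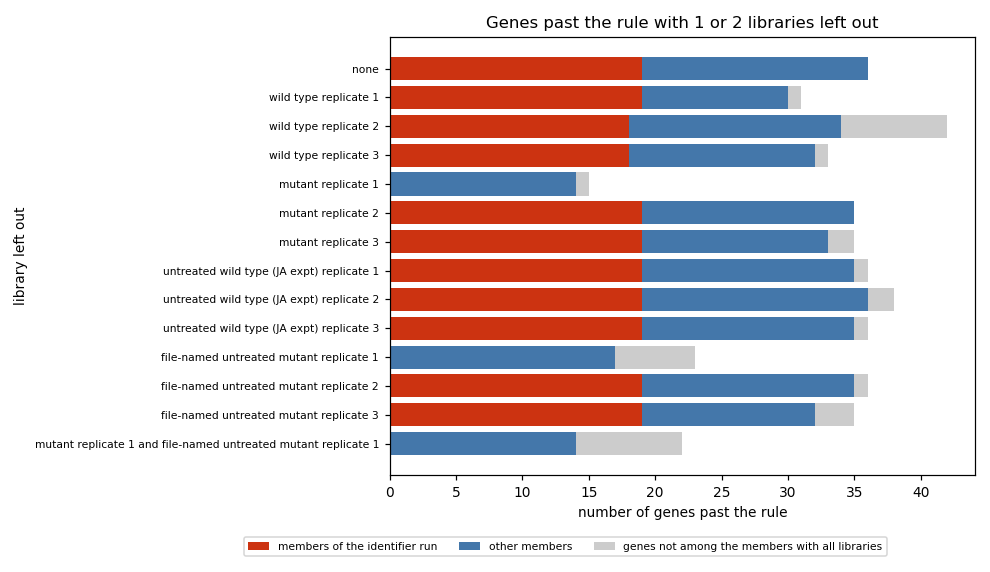
Number of genes past the rule with all libraries and with 1 or 2 libraries left out. Red bars count members of the identifier run, blue bars the other members, and grey bars genes that were not members with all libraries. The red part is absent in the 3 bars that leave out mutant replicate 1, file-named untreated mutant replicate 1, or both.

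The 17 others differed between mutant and wild type by modest amounts that most libraries shared. Their log2 ratios ran from 0.60 to 1.85 in the genotype experiment (median 0.73) and from 0.61 to 2.69 in the JA experiment (median 1.00). The groups did not overlap for 16 of the 17 in the genotype experiment, where 18.6% of the 7515 gene models past 10 CPM were higher in all mutant libraries. In the JA experiment they did not overlap for 14 of the 17, with 10.9% for the 7515.

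Their mean levels in the mutant of the genotype experiment ran from 10.1 to 602 CPM. The highest there were those of Zm00001d011012 and Zm00001d038167. Zm00001d011012 stood at 383, 436 and 369 CPM in wild type and at 583, 598 and 625 CPM in the mutant. In the JA experiment it stood at 736, 822 and 723 CPM in untreated wild type and at 1234, 1222 and 1302 CPM in file-named untreated mutant. Every mutant library lay above every wild type library in both experiments, with means of 396 ± 35.2 against 602 ± 21.7 CPM in the first and 760 ± 53.6 against 1253 ± 43.3 CPM in the second (SD, n = 3 each).

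Zm00001d038167 stood at 72.9, 80.2 and 82.0 CPM in wild type and at 119, 127 and 123 CPM in the mutant. In the JA experiment its level was lower, at 34.4, 39.6 and 42.8 CPM in untreated wild type and at 53.9, 49.4 and 76.2 CPM in file-named untreated mutant. No libraries overlapped between the groups in either experiment.

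Several members lay close to the threshold of 0.6. Just inside were smaller log2 ratios of 0.603 (Zm00001d011012), 0.606 and 0.608 (Zm00001d038167), and just outside were 0.590, 0.559 and 0.558. In addition, 78 gene models had both ratios past 0.6 but under 10 CPM in at least 1 mutant group.

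The members were then examined in libraries the rule had not used. JA-treated mutant was compared with file-named JA-treated wild type, which by genotype fields is again mutant against wild type. Of the 36 members 18 had enough counts to be tested, 13 of them outside the run. Higher in JA-treated mutant were 4 of the 18 and lower were 0 (edgeR quasi-likelihood test over 9127 features, Benjamini-Hochberg adjusted p under 0.05). Of all features tested 0.931% were called higher and 1.41% lower. DESeq2 called 3 members higher and 0 lower. At an unadjusted p under 0.05, 8 were higher and 1 lower in edgeR, where 7.52% and 8.11% of all features were. Of the 18, 2 reached the level the filter asks for, 9.86 CPM, in JA-treated mutant libraries only, so they entered through the group where they were high. With these 2 set aside, 3 of 16 were called. The number called was 1 without file-named JA-treated wild type replicate 2, 2 without its replicate 3, 2 without JA-treated mutant replicate 2, and 20 of 32 tested without JA-treated mutant replicate 1. It was 22 of 36 with no filter on low counts and 7 with ENSRNA features left out. Over all features, 193 of 10461 were called without JA-treated mutant replicate 1. The shares with no filter and without ENSRNA features were 475 of 27205 and 452 of 9015. The 32 and the 36 members tested include members of the run, whose counts cannot be taken as separate measurements.

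All 4 called genes were outside the run, and 2 are given by the rule for naming as the largest changes. Zm00001d020949 stood at 1.71, 3.03 and 0 CPM in file-named JA-treated wild type and at 10.6, 10.6 and 11.7 CPM in JA-treated mutant. All mutant libraries were higher, and the gene rose by 2.63 ± 0.52 (SE) on the log2 scale (edgeR adjusted p = 0.0215). This is 1 of the 2 members that passed the filter only through the group where they were high, so its difference is no independent support. It rested on few counts, 2, 4 and 0 against 9, 9 and 10. Its call was lost without JA-treated mutant replicate 1, 2 or 3, with edgeR adjusted p = 0.0854, 0.113 and 0.132, with the replicate number as a block (adjusted p = 0.0628) and with all 12 JA libraries in 1 fit (adjusted p = 0.0786). DESeq2 gave it no adjusted p, and it fell under the count filter without any 1 of the wild type libraries.

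Zm00001d047110 stood at 22.2, 16.7 and 19.0 CPM in file-named JA-treated wild type and at 49.2, 42.5 and 43.2 CPM in JA-treated mutant. All mutant libraries were higher, and the gene rose by 1.18 ± 0.20 (SE) on the log2 scale (edgeR adjusted p = 0.00829). Without file-named JA-treated wild type replicate 2 the edgeR adjusted p was 0.0521.

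The other 2 called genes were named here after their values were seen. Zm00001d011012 stood at 896, 924 and 965 CPM in file-named JA-treated wild type and at 1423, 1361 and 1320 CPM in JA-treated mutant (log2 fold change 0.52 ± 0.06 SE, edgeR adjusted p = 0.00127). Leaving out each library in turn did not end this call. Zm00001d008548 stood at 64.9, 52.3 and 57.8 CPM against 94.9, 119 and 102 CPM (log2 fold change 0.81 ± 0.15 SE, edgeR adjusted p = 0.0119). Without file-named JA-treated wild type replicates 2 or 3, or without JA-treated mutant replicate 2, its edgeR adjusted p was 0.0814, 0.0652 and 0.0599.

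No member passed the test as lower in JA-treated mutant. The 2 with the smallest unadjusted p in that direction were Zm00001d025901 and Zm00001d037968. Zm00001d025901 stood at 46.1, 42.4 and 37.1 CPM in file-named JA-treated wild type and at 39.8, 21.2 and 31.5 CPM in JA-treated mutant, with overlapping groups (log2 fold change −0.48 ± 0.22 SE, edgeR adjusted p = 0.318). Zm00001d037968 stood at 29.0, 34.9 and 15.7 CPM against 18.8, 23.6 and 14 CPM, again with overlapping groups (−0.55 ± 0.34 SE, edgeR adjusted p = 0.493).

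As a whole, the 17 members outside the run had log2 ratios of −0.48 to 3.08 under JA, and 0 were at −0.6 or less. On mean CPM + 1, 13 had a positive log2 ratio and 4 a negative one, and 8 of the 17 were at 0.6 or more. The 4 include Zm00001d037968 and Zm00001d037969, whose counts nearly coincide. Their median was 0.59, against 0.04 for the 7515 gene models past 10 CPM. For 9 of the 17 the groups were apart with JA-treated mutant higher and for 0 with it lower, where the shares over the 7515 were 12.3% and 8.73%. Of the 13 members with all mutant libraries higher in both experiments of the rule, 8 were so again under JA. Of the 273 gene models that met the same condition in both experiments, 119 were so again, or 43.6%.

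Zm00001d033824 belongs to these 8, and was singled out after its values were seen. It held 0 counts in all 3 file-named JA-treated wild type libraries and 6, 9 and 4 counts in JA-treated mutant, too few to be tested. Against a floor of 3 counts, taken over the 3 libraries together, it was at least 9.17-fold higher in JA-treated mutant, a bound that covers counting error only. In untreated wild type it stood at 3.13, 1.15 and 3.01 CPM and in file-named untreated mutant at a mean of 14.5 ± 0.82 CPM (SD, n = 3).

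The run under JA again differed between libraries of a group, with a shared level in JA-treated mutant replicates 2 and 3. On mean CPM + 1, all 19 had a positive log2 ratio and 18 were at 0.6 or more, against 5.34% of the 7515 gene models. The groups were apart for 1 of the 19, with JA-treated mutant higher, where the share over the 7515 was 12.3%. As above, these are not 19 separate measurements. In JA-treated mutant the medians of its 19 members were 0, 35 and 12 counts, and in file-named JA-treated wild type 2, 2 and 1. In JA-treated mutant replicate 2 the lowest of the 19 counts was 34 and in replicate 3 it was 11, while replicate 1 had 0. Only 5 of the 19 had enough counts to be tested, with log2 fold changes of 0.49 to 1.82. Neither edgeR nor DESeq2 called any of these 5, of which 2 had an unadjusted p under 0.05 in edgeR.

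**Figure D4:**
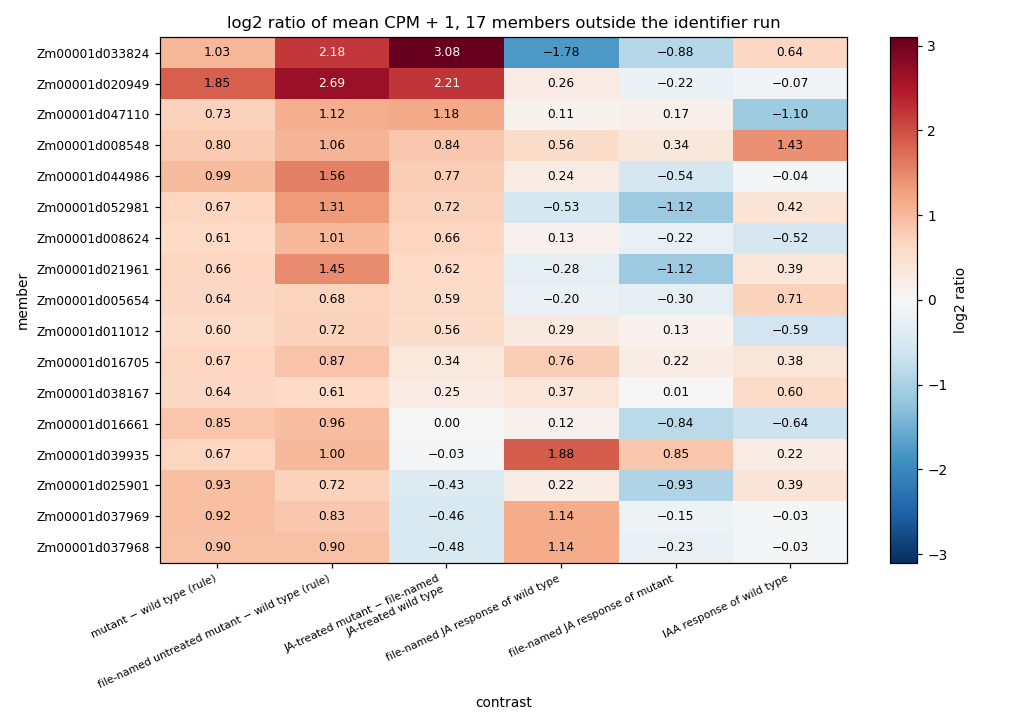
Log2 ratio of mean CPM + 1 for the 17 members outside the run (rows) in 6 contrasts (columns), ordered by the third column. The first 2 columns were used by the rule, and the 2 contrasts with against without JA by file name share libraries with it. In the third column, the values run from 3.08 for Zm00001d033824 to −0.48 for Zm00001d037968.

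The contrasts with and without JA within a genotype share libraries with the rule, so they are given as values without a test. By file name, the response of wild type to JA is file-named JA-treated wild type against untreated wild type. Of the 17, 13 had a positive ratio and 4 a negative one, with a median of 0.24, while the 7515 gene models had a median of −0.16. Libraries were apart for 6 that were higher and 1 that was lower, and over the 7515 the shares were 4.06% and 24.1%. The wild type libraries without JA were those in which members were chosen to be low, so nothing is read from these counts.

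The largest positive ratios in that contrast by the rule for naming were those of Zm00001d039935 and Zm00001d037968. The groups of Zm00001d037968 were barely apart, with 15.66 CPM the highest in untreated wild type and 15.68 CPM the lowest in file-named JA-treated wild type. Those of Zm00001d037969, which has nearly the same counts, overlapped, at 15.66 against 14.85 CPM. Zm00001d039935 stood at 178, 170 and 158 CPM in untreated wild type and at 618, 597 and 662 CPM in file-named JA-treated wild type. It was at 310, 336 and 368 CPM in file-named untreated mutant and at 669, 614 and 552 CPM in JA-treated mutant. The 4 groups thus lay in the order untreated wild type, file-named untreated mutant, then both JA groups, which overlapped each other. In JA-treated mutant against file-named JA-treated wild type its log2 fold change was −0.07 ± 0.09 (SE, edgeR adjusted p = 0.776).

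By file name, the response of the mutant to JA is JA-treated mutant against file-named untreated mutant, in which members were chosen to be high. Of the 17, 6 had a positive and 11 a negative ratio, with a median of −0.22, against −0.11 for the 7515 gene models. Libraries were apart for 4 that were higher and for 4 that were lower, and over the 7515 the shares were 5.96% and 16.5%.

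Zm00001d039935 had the largest positive ratio there, 0.85, and Zm00001d008548 the next among those with separate groups, at 81.3, 76.6 and 90.6 CPM without JA and 94.9, 119 and 102 CPM with it. Among members with separate groups, Zm00001d021961 had the largest negative ratio, −1.12, at 17.0, 25.2 and 22.6 CPM in file-named untreated mutant and 9.38, 10.6 and 8.17 CPM in JA-treated mutant. Zm00001d025901 followed at −0.93, from 54.7, 51.4 and 72.7 CPM to 39.8, 21.2 and 31.5 CPM. In Zm00001d021961 the level in untreated wild type was 9.91, 4.02 and 7.83 CPM, and that of file-named JA-treated wild type 7.69, 3.03 and 6.6 CPM, which overlap.

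IAA-treated wild type was compared with its own untreated control, in libraries that the rule had not used. Of the 36 members 14 had enough counts to be tested, 13 of them outside the run. After IAA 1 rose and 1 fell (edgeR quasi-likelihood test over 7687 features, Benjamini-Hochberg adjusted p under 0.05), where 1.26% of all features were called higher and 1.12% lower. At an unadjusted p under 0.05, 2 were higher and 2 lower, where 7.22% and 7.39% of all features were. The median log2 fold change of the 14 was 0.25, against 0.001 for all features. That median was −0.15 with no filter on low counts, over 34 members, and −0.005 without untreated replicate 3.

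Zm00001d011012 fell with IAA. It stood at 2124, 2089 and 2202 CPM in untreated libraries and at 1419, 1361 and 1469 CPM in treated ones, with no overlap (log2 fold change −0.59 ± 0.08 SE, edgeR adjusted p = 0.000773). Leaving out each of the 6 libraries in turn did not end this call. This gene also passed the other test, as higher in JA-treated mutant than in file-named JA-treated wild type. By file name that test is a genotype difference and this one a hormone response, so their signs are not compared.

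Zm00001d016705 rose with IAA, from 1324, 1188 and 1319 CPM to 1650, 1670 and 1666 CPM (log2 fold change 0.39 ± 0.08 SE, edgeR adjusted p = 0.0214). The call did not hold without untreated replicates 2 or 3 or treated replicates 1, 2 or 3, with edgeR adjusted p = 0.188, 0.0714, 0.0594, 0.0978 and 0.0997. It was also lost with no filter on low counts (edgeR adjusted p = 0.11). In the JA experiment it stood at 111, 109 and 105 CPM in untreated wild type, and at 181, 190 and 182 CPM in file-named JA-treated wild type. JA-treated mutant stood at 229, 250 and 221 CPM, above every library of that group, but the difference did not pass the test (log2 fold change 0.30 ± 0.11 SE, edgeR adjusted p = 0.206).

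Zm00001d047110, which was higher in JA-treated mutant and was singled out after its values were seen, stood at 36.5, 58.0 and 49.3 CPM without IAA and at 27.8, 17.8 and 19.7 CPM with it. Every treated library was lower, but the difference did not pass the test (log2 fold change −1.14 ± 0.35 SE, edgeR adjusted p = 0.12). On mean CPM + 1, 9 of the 17 had a positive and 8 a negative ratio with IAA. Libraries were apart for 4 that were higher and 3 that were lower, where the shares over the 7515 gene models were 8.46% and 9.75%.

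**Figure D5:**
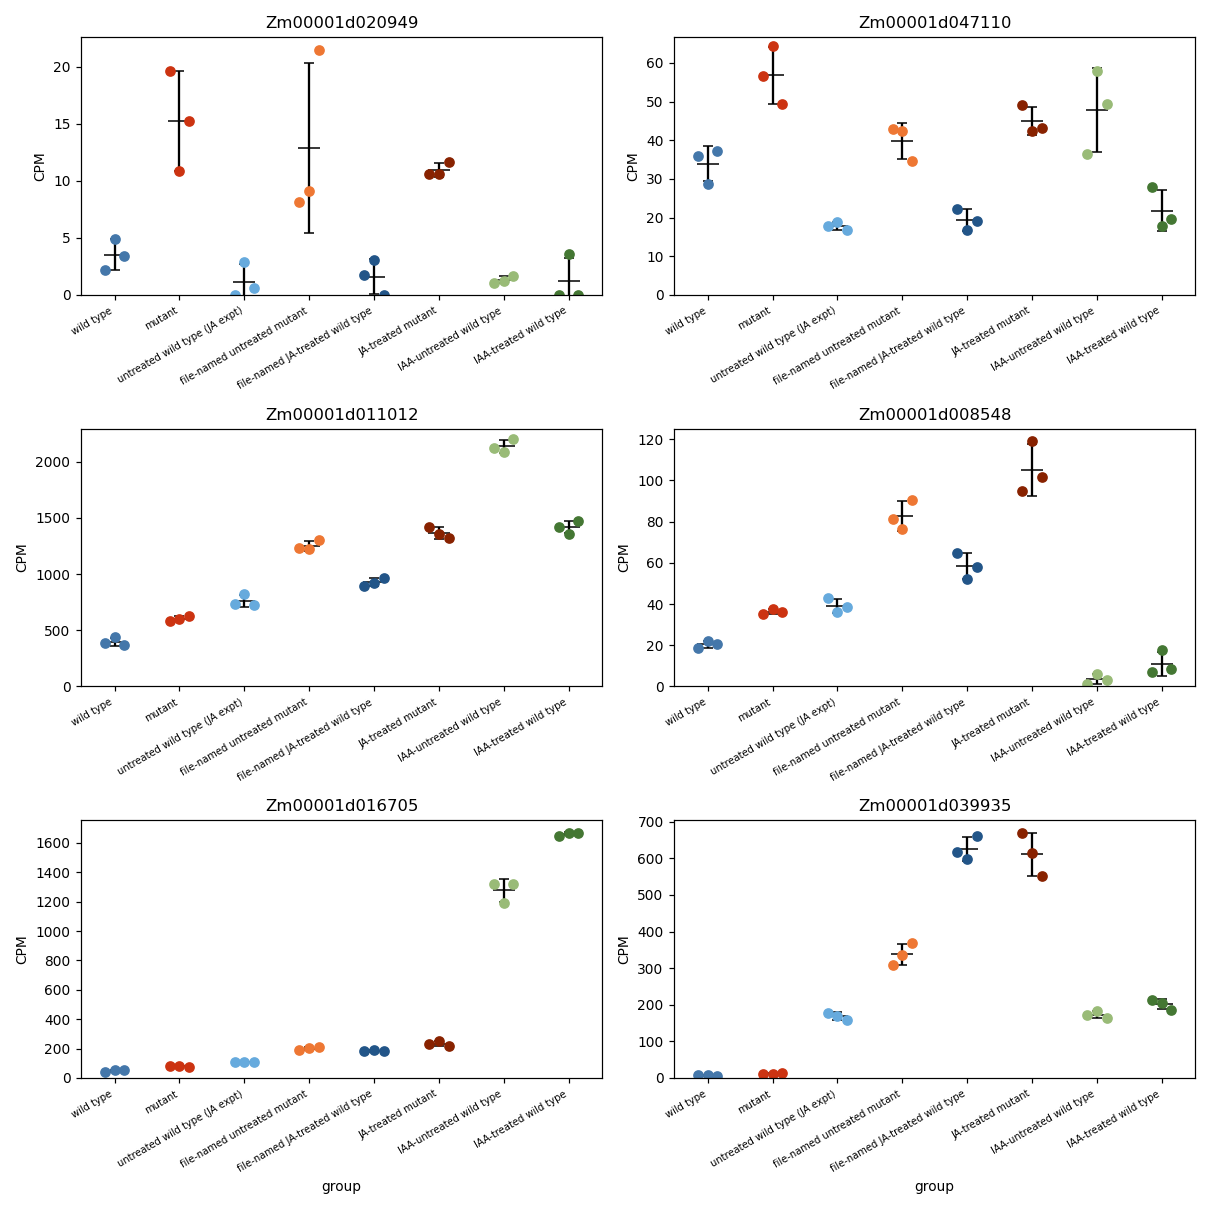
CPM of 6 members in the 8 groups, each point a library and each bar the mean ± SD of 3 libraries, on linear axes that start at 0. Zm00001d020949, Zm00001d047110, Zm00001d011012 and Zm00001d008548 passed the test as higher in JA-treated mutant than in file-named JA-treated wild type. Zm00001d011012 fell and Zm00001d016705 rose with IAA, and Zm00001d039935 had its highest levels, 626 ± 32.9 and 612 ± 58.7 CPM, in the 2 groups that are JA-treated by file name.

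For some members outside the run, levels in wild type without hormone differed between the experiments by more than their ratios of mutant to wild type. The 2 examples given here have large differences and do not stand for all members. Zm00001d016705 had a mean of 50.5 ± 6.78 CPM in the genotype experiment, 109 ± 2.9 in the JA experiment and 1277 ± 77.3 in the IAA experiment (SD, n = 3 each). Zm00001d039935 had means of 7.07 ± 1.56, 169 ± 10.2 and 173 ± 9.94 CPM in the same order. The sum over the 17 members was 677 to 758 CPM in wild type of the genotype experiment, 1277 to 1369 CPM in untreated wild type of the JA experiment and 3970 to 4211 CPM in untreated libraries of the IAA experiment. A few genes made up most of these sums. Zm00001d011012 alone had means of 396, 760 and 2138 CPM in the same order. The median over the 17 was 10.3 to 13.9, 10.9 to 15.7 and 47.1 to 53.1 CPM per library. The libraries of an experiment also share their depth, and a part of growth conditions, handling or sequencing in these differences was not tested.

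Within the genotype experiment the sum over the 17 was 1140 to 1149 CPM in the mutant, and the groups did not overlap. Zm00001d011012 alone had a mean of 602 CPM in that group. The sum over the 19 of the run was 867 CPM in mutant replicate 1 and 87.0 and 98.1 CPM in replicates 2 and 3, around the 90.9 to 116 CPM of wild type. In file-named untreated mutant it was 4775 CPM in replicate 1 and 98.7 and 116 CPM in the others. The features of the ENSRNA series, a class of identifiers apart from the gene models, took 10.7% of the counts of that replicate 1, 6.84% of replicate 2 and 3.33% of replicate 3, and 1.13% to 3.61% in the other JA libraries. Their part in the values of the run was not tested.

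The opposite rule, with at least 10 CPM in both wild type groups and ratios of −0.6 or less in both experiments, gave 19 genes. In JA-treated mutant against file-named JA-treated wild type 15 of these were tested, 0 were called higher and 3 lower, where 0.931% and 1.41% of all features were. The median log2 fold change was −0.30 in these 15 and 0.30 in the 13 tested members outside the run. Of the 13, 2 (Zm00001d020949 and Zm00001d008624) passed the count filter only through JA-treated mutant, where they were high. Whether any of the 15 passed only through wild type was not examined, so nothing is read from the 2 medians. A difference between the 2 lists was not tested.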

How the data were processed

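The files hold raw counts per feature as deposited, 1 table per library, from MP3RNA-seq of pooled endosperms per the labels' protocols. The submitters' processing notes name Trimmomatic 0.39 and HISAT2 2.2.1. For the counting program, build, annotation, strand, duplicate molecules and reads on several features, nothing is stated, so overlapping, antisense and near-identical genes are uncertain. The reference table of 49888 genes names 0 of 44146 nuclear gene models, and no sequences are printed.

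Libraries were put into groups of 3 by title, and the JA groups whose labels conflict are called by file name in the text. Members, comparisons and lists were chosen with earlier results of these data known. Tests used edgeR 4.0.16 in R 4.3.3 on the counts, with TMM scaling, filterByExpr at a minimum count of 10 and 2-sided quasi-likelihood tests on the 6 libraries of a comparison, adjusted over all features tested. The SE is the absolute log2 fold change over the square root of F. DESeq2 1.42.0 was an alternative. The fits were tested on simulated data. Chi-square per degree of freedom between replicates was 1.76 or more, above sampling noise.

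Named members were, where the rule used the contrast, the 2 with the largest smaller ratio and the 2 with the highest mutant CPM. In tests they were up to 2 called members per direction with the largest changes and groups apart, or, with none called, the 2 of smallest unadjusted p. Where libraries were shared with the rule, they were the 2 largest ratios per direction among those with groups apart and 10 CPM.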

Additional observations from a re-analysis of the deposited data

How the results depend on the processing

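The number of members was 36 by the rule and 27 to 39 with TMM-scaled library sizes, totals without ENSRNA features or a pseudocount of 0.1 or 5. It was 18 at a ratio threshold of 1, 15 to 42 with each library left out, 22 without mutant replicate 1 and file-named untreated mutant replicate 1, and 17 without the run. The last 2 were chosen after the data had been seen. In JA-treated mutant against file-named JA-treated wild type 4 members were called. The number was 7 once ENSRNA features had been dropped, 22 of 36 tested without the low-count filter, and 1 to 20 with each library left out. The 36 tested, and the 32 tested where 20 were called, include members of the run, whose counts are not separate measurements. The median log2 fold change, 0.54, was 1.56 without the filter, 1.60 with 12 libraries in 1 fit, both with 36 members tested, and 0.45 to 2.31 with each library left out. In the IAA comparison 2 members were called, and 1 to 2 with each library left out. Both of the 2 called were lower with no filter on low counts, and likewise without untreated replicate 2. The median, 0.25, became −0.15 without the filter, with 34 members tested, and −0.005 without untreated replicate 3, and ran to 0.23 with the other libraries left out. With the replicate number as a block 3 members were called in the JA and 2 in the IAA comparison. Deviations of same-numbered libraries correlated at −0.04 to 0.13, so the numbers were not taken as pairs. Over all features, 214 were called in the JA comparison, 475 without the filter, 452 without ENSRNA features, 326 with 12 libraries in 1 fit and 97 to 193 with each library left out. In the IAA comparison 183 were called, 364 and 319 in the same settings, and 78 to 191 with each library left out. With library totals in place of TMM the JA split was 113 higher and 115 lower, against 85 and 129. No called member changed direction in the settings run for it. The causes of these changes were not tested, apart from the number of members tested. Under JA, counts of a few per library limit the members of the run and 4 of the 17 others, which were not tested. Tested members are limited as well, such as Zm00001d020949 with 2, 4 and 0 against 9, 9 and 10 counts.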
